A study of Mus musculus with 6 samples.

Results

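Expression of 10 heat shock and chaperone genes, Hspa1a, Hspa1b, Hspa8, Hsp90aa1, Hspb1, Hspb6, Hspb7, Hspb8, Cryab and Dnajb1, was examined in the hearts of mice with reduced release of acetylcholine. A probe set, the group of array probes summarised to 1 value, was included when the gene symbols listed for it on the array platform held 1 of these 10 symbols as a whole symbol. This rule found 17 of the 35556 probe sets, and it covered all 10 of the genes, of 21335 gene symbols on the array. Of the 17, 14 list 1 gene, 1 lists Hspa1a and Hspa1b together, and 2 list Hspa8 together with the small nucleolar RNAs Snord14d and Snord14c. The RNA came from hearts of male mice 3 months of age, 3 arrays from wild-type (WT) mice and 3 from VAChT KD mice, both of the strain labelled C57BL/6 and neither given any treatment. VAChT, encoded by Slc18a3, loads acetylcholine into synaptic vesicles, and the knockdown is carried in the germ line, so that it is not limited to the heart or to nerves of the heart. The study's methods describe homozygous mutants and a mixed background after a short backcross, and name ventricles as the tissue where the records name the heart. RNA from 2 samples was pooled for every array, so that the spread given below is that between 3 pools in each group. The comparison asked which transcripts of the heart differ when cholinergic signalling has been low for long.

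Heat shock proteins bind other proteins that have lost their fold or have not yet reached it. Hsp70 proteins act in cycles of ATP hydrolysis, which J-domain proteins such as Dnajb1 start, and Hsp90 proteins take over clients from Hsp70. Small heat shock proteins need no ATP and hold unfolding proteins in solution, and several of them are abundant in striated muscle, where they lie along the sarcomere and the intermediate filaments. Some members are made at all times, and others rise steeply when the transcription factor HSF1 is released by heat or other damage to proteins and binds heat shock elements, which are inverted repeats built around GAA and TTC.

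The stretches upstream of the transcription start were read because Hspa1a and Hspa1b share a probe set and because HSF1 binds such repeats. RefSeq promoter windows on GRCm38.p6 were at hand for 7 of the 10 genes, in 9 windows, and the 250 bases before each start were searched for GAANNTTC and TTCNNGAA. Both words read the same on either strand, and they can overlap each other. GAANNTTC was found in 6.69% of all 32851 windows and in 4 of the 9 windows of the members, those of Hspa1a, Hspa1b, Hspb1 and 1 of the 2 windows of Hspb6. TTCNNGAA was found in 7.17% of all windows and in 0 of the 9. The 250 bases upstream of Hspa1a and Hspa1b are shown in full, as they differ at 3 positions only, and those of Hspb1 and Hspb6 as 68 bases around the first match. Capitals mark GAANNTTC.
Hspa1b, minus strand, chr17:34959239-34959488: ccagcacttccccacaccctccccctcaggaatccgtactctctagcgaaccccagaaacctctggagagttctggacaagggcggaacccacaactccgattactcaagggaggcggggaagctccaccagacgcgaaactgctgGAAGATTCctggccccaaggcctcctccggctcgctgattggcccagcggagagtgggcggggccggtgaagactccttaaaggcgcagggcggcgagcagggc
Hspa1a, minus strand, chr17:34972157-34972406: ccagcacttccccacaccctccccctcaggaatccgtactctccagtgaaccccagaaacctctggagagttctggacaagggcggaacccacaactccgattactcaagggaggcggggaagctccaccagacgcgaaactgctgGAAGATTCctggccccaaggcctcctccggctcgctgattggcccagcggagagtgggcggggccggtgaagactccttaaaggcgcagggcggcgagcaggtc
Hspb1, plus strand, chr5:135887772-135887839: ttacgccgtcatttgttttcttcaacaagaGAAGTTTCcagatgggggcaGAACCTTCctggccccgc
Hspb6, plus strand, chr7:30553151-30553218: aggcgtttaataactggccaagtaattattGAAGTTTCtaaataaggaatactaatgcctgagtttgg
The match began 104 bases before the start in both Hsp70 genes, 117 bases before it in Hspb1 and 120 bases before it in Hspb6. A match is a run of letters and not a measured binding site. The windows of Hspb7, Hspb8 and Dnajb1 held neither word.

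The values are log2 signals that the authors obtained with RMA, which corrects the background, equalises the arrays and summarises the probes. They were compared between genotypes with limma, fitted over all probe sets and adjusted by the Benjamini-Hochberg method. The number of arrays limits the precision. Slc18a3, the targeted gene, read 7.31, 7.42 and 7.11 in WT 1, 2 and 3 and 7.24, 6.77 and 7.58 in VAChT KD 1, 2 and 3, so that it did not separate the labelled groups. Ogdhl read 7.21 in WT 2 against 9.60 and 10.33 in the other WT arrays, and 10.17 in VAChT KD 2 against 7.06 and 7.09 in the other mutant arrays. Both arrays numbered 2 thus lay with the opposite label for this gene, and the differences of the members are also given without them. Whether the labels of these arrays were exchanged was not tested, so every difference between genotypes below rests on the labels as given. VAChT KD 1 stood apart in another way. All 8 of 8 listed ventricular myocyte markers were measured, and their mean was 13.12 in VAChT KD 1 against 13.69 to 13.70 in WT and 13.76 in both other mutant arrays. Troponin T (Tnnt2) read 13.59 in VAChT KD 1 and 14.50 to 14.61 elsewhere, whereas titin (Ttn) read 12.62 there and 12.59 to 12.72 elsewhere. Low values in VAChT KD 1 were not limited to myocyte genes. The fibroblast marker Dcn read 12.84 there and 13.09 to 13.30 elsewhere. Not all fibroblast markers were low there, as Postn read 9.76 there and 9.27 to 9.77 elsewhere. The mean of 6 fibroblast markers was 9.71 there and 9.72 to 9.88 elsewhere. In RNA of whole tissue, fewer cells of a type and less RNA per cell cannot be told apart. The cause of the low values on this array, including how high signals were measured on it, was not tested.

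The 17 probe sets all lay above the 95th percentile of olfactory receptor probe sets (6.503), which was taken as background, and 14 lay above the 90th percentile of all probe sets. The small heat shock proteins of muscle and Hspa8 gave the highest signals. Hspb6 led at a mean of 13.51 over the 6 arrays, rank 95 of 35556. It was followed by probe sets of Hspa8 (13.20 and 13.11), Hspb7 (12.96), the remaining probe set of Hspa8 (12.89), Cryab (12.74) and Hspb8 (12.20). Hspb1 followed at 11.11 and 11.04, Hsp90aa1 at 10.65, 10.41 and 10.06, and the probe sets of Snord14d, Snord14c and Hspa8 at 10.27 and 10.26. The order closed with 9.32 for the probe set of Hspa1a and Hspa1b, 8.17 for Dnajb1 and 7.82 for Hspa1a alone. Of the 16 steps between neighbours in this order, 9 were smaller than the larger of the 2 SDs within groups. Probes differ in how strongly they bind, so the order is one of signals and not of transcript numbers.

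**Figure D1:**
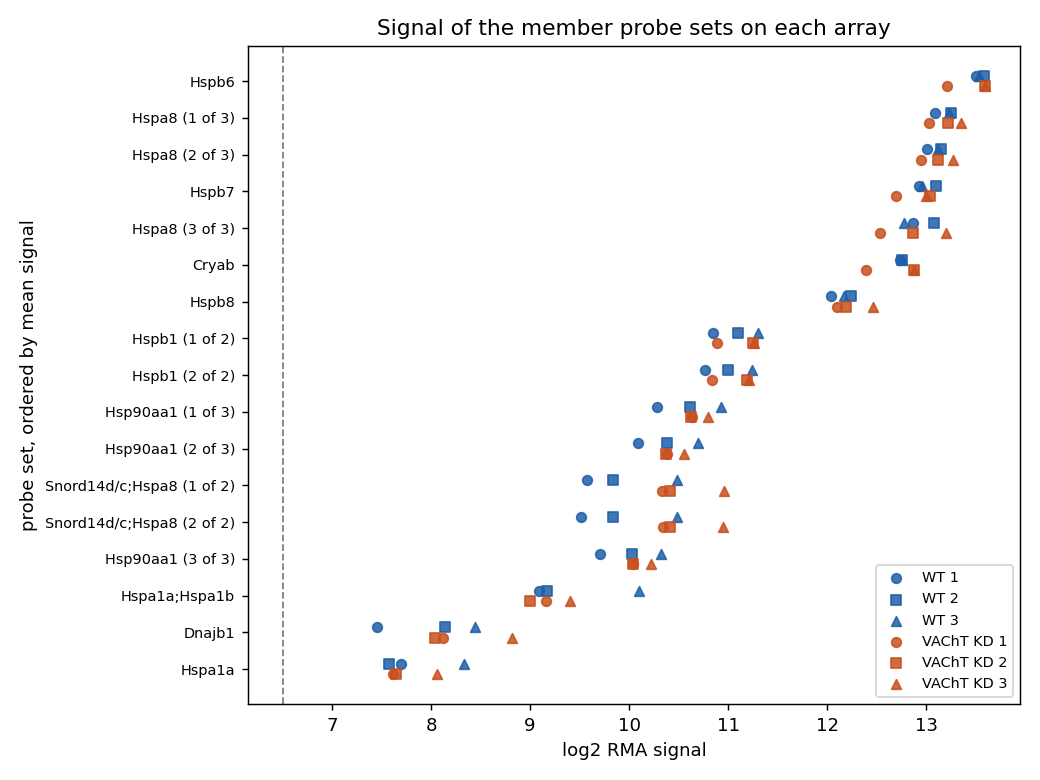
Log2 RMA signal (horizontal axis) of the 17 member probe sets, ordered from the highest mean signal to the lowest (vertical axis), on the 3 WT arrays (blue) and the 3 VAChT KD arrays (orange). The dashed line is the 95th percentile of olfactory receptor probe sets (6.503), and the groups overlap at every probe set.

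No member passed an adjusted p of 0.05, and the groups overlapped at all 17 probe sets. At an unadjusted p of 0.05 in limma, 2 of the 17 were higher in VAChT KD and 0 lower, where 3.93% of all probe sets were higher and 7.81% lower. This split over all probe sets depended on the scaling, as 6.72% were higher and 3.66% lower when each array was centred on its median, and the members' count stayed at 2 and 0 there. The members' count was 0 after a further quantile normalization, with array weights, with the methods' gene-level test and without both arrays numbered 2. Among the 20448 probe sets above background, to which all members belong, 10.2% passed in either direction. Both are the probe sets listed with Snord14d and Snord14c, and both also exceeded 1.3-fold, as did 2.12% of all probe sets on the higher side and 1.67% on the lower side. None of the 14 probe sets that list 1 member alone passed. At an adjusted p of 0.05, limma called 0.00281% of all probe sets. Between groups, no overlap on the higher side was seen at 6.25% of all probe sets, and on the lower side at 12.9%. The median log2 difference, VAChT KD minus WT, was 0.05 over the 17 probe sets and 0.03 over the 14, against -0.02 over all probe sets.

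**Figure D2:**
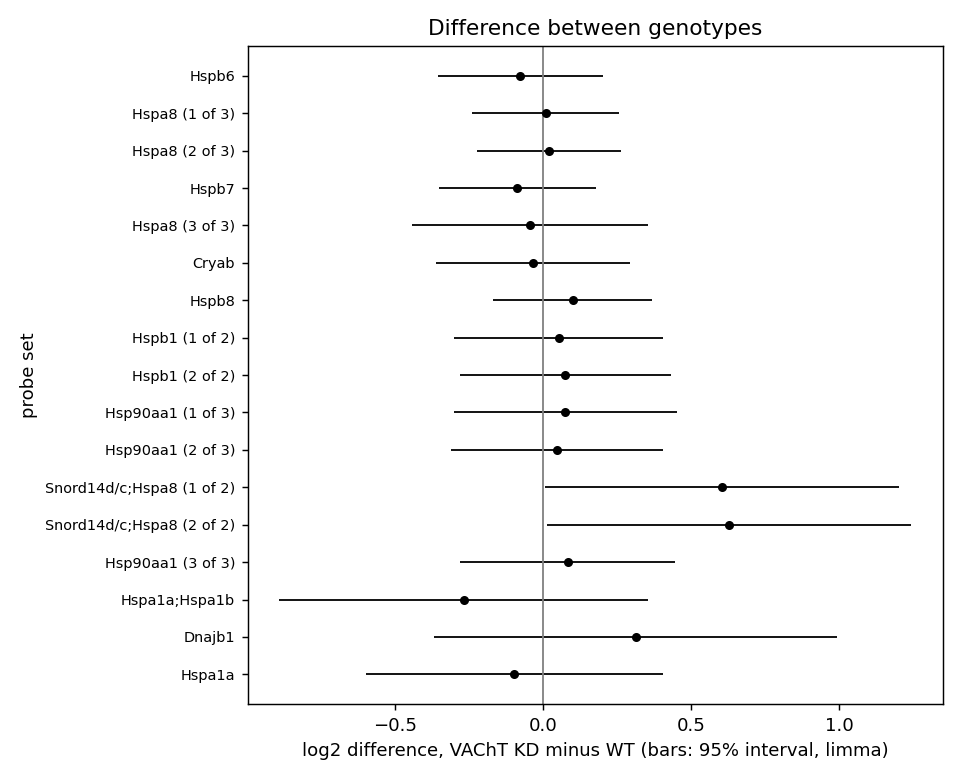
Log2 difference, VAChT KD minus WT (horizontal axis), of the 17 member probe sets with limma's 95% interval (bars), in the order of mean signal (vertical axis). Only the intervals of the probe sets listed with Snord14d and Snord14c lie above 0, at 0.60 and 0.63, and the widest intervals of the others belong to Dnajb1, Hspa1a with Hspa1b and Hspa1a.

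Hspb6, also called Hsp20, is a target of cAMP-dependent kinase in the heart. It read 13.51, 13.59 and 13.54 in WT 1, 2 and 3 and 13.21, 13.59 and 13.60 in VAChT KD 1, 2 and 3. Only VAChT KD 1 lay below the WT arrays, and both other mutant arrays lay at or just above the highest of them. The log2 difference was -0.08 (standard error 0.12, adjusted p = 0.789 in limma), with a 95% interval from -0.36 to 0.20. Without VAChT KD 1 it was 0.05 (standard error 0.09), and without both arrays numbered 2 it was -0.12 (standard error 0.16).

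Hspb7, the cardiovascular small heat shock protein, read 12.93, 13.10 and 12.96 in WT and 12.70, 13.04 and 13.00 in VAChT KD. Cryab, the alpha B-crystallin that protects desmin filaments, read 12.74, 12.76 and 12.75 in WT and 12.39, 12.88 and 12.88 in VAChT KD. In both, VAChT KD 1 was the lowest of the 6 arrays. For Cryab the WT arrays lay close together (SD 0.01, n = 3), and the mutant arrays lay on either side of them (SD 0.28, n = 3). The log2 difference was -0.09 (standard error 0.11) for Hspb7 and -0.03 (standard error 0.14) for Cryab. Without VAChT KD 1 these became 0.02 (standard error 0.10) and 0.13 (standard error 0.08), and without both arrays numbered 2 they became -0.10 (standard error 0.15) and -0.11 (standard error 0.18). Cryab also turned to 0.03 when each array was centred on its median. The ventricular myocyte markers were low in VAChT KD 1 as well, by 0.50 below their mean over the 6 arrays, and Hspb6, Hspb7 and Cryab lay below theirs by 0.30, 0.26 and 0.34 in that array. The part of the markers in these differences was not tested.

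Hspb8, which works with Bag3 in the removal of damaged sarcomere proteins, behaved differently. It read 12.04, 12.25 and 12.17 in WT and 12.10, 12.19 and 12.46 in VAChT KD, with VAChT KD 3 the highest and WT 1 the lowest. The log2 difference was 0.10 (standard error 0.11), with an interval from -0.17 to 0.37, and without both arrays numbered 2 it was 0.18 (standard error 0.16). Hspb1, the small heat shock protein that binds actin filaments, read 10.84, 11.10 and 11.30 in WT and 10.89, 11.25 and 11.26 in VAChT KD at the brighter of its 2 probe sets. The array numbered 1 was the lowest in each genotype. Its log2 difference was 0.05 (standard error 0.15) there and 0.08 (standard error 0.15) at the other probe set, and without both arrays numbered 2 these were 0.003 and 0.016 (standard error 0.21 for each). The values of both probe sets, with their means removed, differed by at most 0.03 on any array.

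Hspa8, the Hsp70 protein that cells make without stress, read 13.09, 13.25 and 13.23 in WT and 13.03, 13.22 and 13.36 in VAChT KD at its brightest probe set. WT 1 and VAChT KD 1 were the lowest and VAChT KD 3 the highest. The log2 differences at the 3 probe sets that list Hspa8 alone were 0.01 (standard error 0.11), 0.02 (standard error 0.10) and -0.04 (standard error 0.17), the last of which turned to 0.02 when each array was centred on its median. Without both arrays numbered 2 they were 0.03, 0.045 and 0.045 (standard error 0.15 to 0.22). This probe set deviated from the others by up to 0.19 on 1 array. The interval of the brightest, from -0.24 to 0.26, does not reach 1.3-fold in either direction.

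Among the probe sets that list members alone, those of Dnajb1 and of the inducible Hsp70 genes had the widest spread within groups. The probe set of Hspa1a and Hspa1b, the paired genes of stress-inducible Hsp70 that lie next to each other on chromosome 17, read 9.09, 9.17 and 10.11 in WT and 9.16, 9.00 and 9.41 in VAChT KD. WT 3 stood above the other 5 arrays, which lay between 9.00 and 9.41. The log2 difference of -0.27 (standard error 0.27, adjusted p = 0.668 in limma) therefore rested on WT 3 and became 0.06 (standard error 0.14) without it, while it was -0.32 (standard error 0.32) without both arrays numbered 2. The probe set that lists Hspa1a alone read 7.70, 7.57 and 8.33 in WT and 7.61, 7.65 and 8.06 in VAChT KD. There too WT 3 was the highest, with VAChT KD 3 next. The log2 difference was -0.10 (standard error 0.21), 0.14 (standard error 0.16) without WT 3 and -0.18 (standard error 0.25) without both arrays numbered 2. As the transcripts of Hspa1a and Hspa1b are close copies, the share of each gene in these signals is uncertain.

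Dnajb1, the J-domain protein that starts the ATPase cycle of Hsp70, read 7.45, 8.14 and 8.45 in WT and 8.12, 8.04 and 8.81 in VAChT KD. WT 1 lay far below the other arrays and VAChT KD 3 above all of them. Its log2 difference of 0.31 (standard error 0.29, adjusted p = 0.646 in limma) was the largest among the probe sets of a single member, with an interval from -0.37 to 0.99. It was 0.03 (standard error 0.25) without WT 1 and 0.52 (standard error 0.37) without both arrays numbered 2. Its SD within groups, 0.47, lay at the 99.0th percentile of the probe sets above background, and that of the probe set of Hspa1a and Hspa1b, 0.43, at the 98.6th. Hsp90aa1, the inducible form of cytosolic Hsp90, read 10.28, 10.62 and 10.93 in WT and 10.63, 10.62 and 10.80 in VAChT KD at its brightest probe set. The mutant arrays fell inside the range of the WT arrays. The log2 differences at its 3 probe sets were 0.08, 0.05 and 0.08 (standard error 0.15 to 0.16), and all 3 fell below 0 without WT 1, to between -0.10 and -0.07. Without both arrays numbered 2 they were 0.11, 0.08 and 0.12 (standard error 0.22 to 0.23).

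The members tended to be high and low on the same arrays, though not all to the same degree. Over the 6 arrays, the Pearson r between 2 members, taken at the brightest probe set of each and for Hspa1b at the one it shares with Hspa1a, had a median of 0.56 over 45 pairs, against 0.06 over all pairs of the 20448 probe sets above background. The lower and upper quartiles were 0.28 and 0.78 over the pairs of members, and -0.39 and 0.48 over all pairs. The 20448 probe sets were not matched to the members in signal. The pair of Hspa1a and Hspa1b includes a probe set that lists both. All these values describe 6 points from shared arrays. Hspb6, Hspb7 and Cryab were alike (r = 0.89 to 0.97), with VAChT KD 1 the lowest array of each. Without VAChT KD 1 their r fell to between 0.27 and 0.78, so that the likeness of these 3 rested largely on that array. Hspa1a, Hspa1b, Hsp90aa1 and Dnajb1 were alike to a lesser degree (r = 0.53 to 0.93), and their lowest r with any 1 array left out was 0.45, without WT 3. Between the genes of these 2 groups, which were set by hand and leave out Hspa8, Hspb1 and Hspb8, r was 0.03 to 0.30. Hspa8 lay between these groups, at 0.83 with Hspb6, 0.71 with Dnajb1 and 0.32 with Hspa1b, and so did Hspb1, at 0.65, 0.74 and 0.53. Hspb8, though a small heat shock protein of muscle, was less like Hspb6, Hspb7 and Cryab (r = 0.46 to 0.54) than it was like Hspa8 (0.88) and Dnajb1 (0.84).

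**Figure D3:**
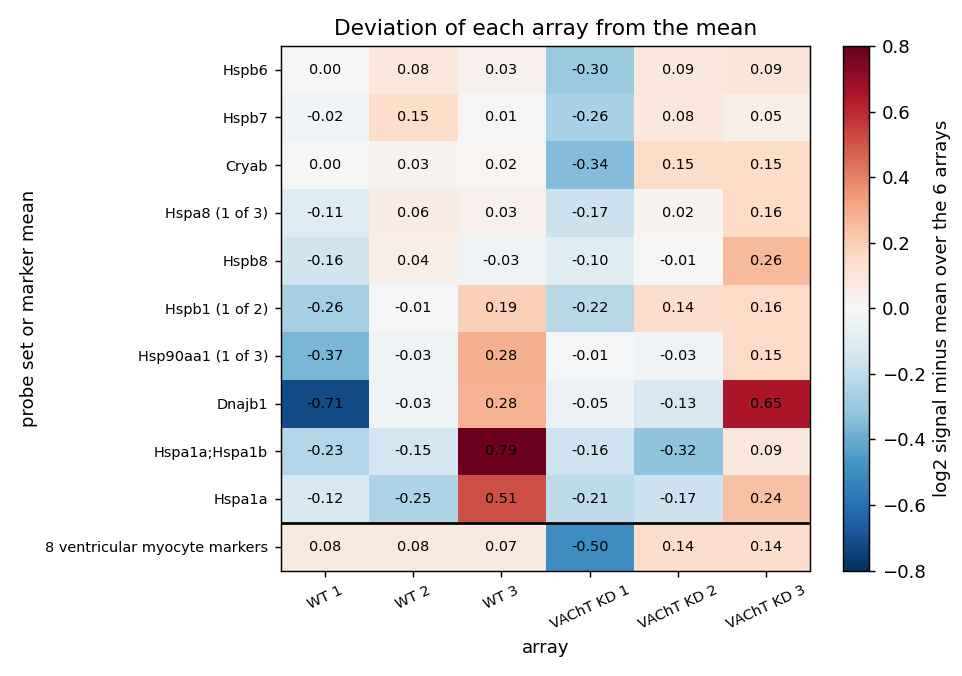
Log2 signal minus the mean over the 6 arrays (colour and printed value) for the brightest probe set of each member and the mean of 8 ventricular myocyte markers (rows) on each array (columns). Hspb6, Hspb7, Cryab and the markers are lowest in VAChT KD 1, whereas Dnajb1 and Hsp90aa1 are lowest in WT 1 and Hspa1a and Hspa1b highest in WT 3.

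Among 14475 other probe sets with 1 gene above background, those most like the probe set of Hspa1a and Hspa1b over the 6 arrays were Tbc1d10b (r = 0.991), Glipr2 (0.977), Hyou1 (0.972), Pigg (0.972) and Pla2g4e (0.970). Hyou1, an Hsp70-related chaperone of the endoplasmic reticulum, is in the wider list described below. It read 8.70, 8.78 and 9.08 in WT and 8.79, 8.76 and 8.83 in VAChT KD, with WT 3 the highest as for Hspa1a and Hspa1b. Those most like Cryab were Tm4sf1 (0.996), Niban2 (0.995), Ldb1 (0.994), Tedc2 (0.992) and Cst3 (0.991). Each of these 5 was lowest in VAChT KD 1, for example Cst3, the secreted protease inhibitor cystatin C, at 13.04 against 13.39 to 13.55 in the other arrays. The highest of so many values of r over 6 points is large by its choice, and no test was made of it.

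The probe sets that list Snord14d, Snord14c and Hspa8 gave the largest differences of the group. Snord14c and Snord14d are C/D box small nucleolar RNAs that guide the modification of ribosomal RNA, and RefSeq places both within Hspa8 on GRCm38.p6, at chr9:40803583-40803669 and chr9:40803995-40804081, with Hspa8 at chr9:40801276-40805202. The brighter probe set read 9.57, 9.84 and 10.48 in WT and 10.33, 10.42 and 10.96 in VAChT KD. WT 1 and WT 2 lay below every mutant array, and WT 3 lay above VAChT KD 1 and VAChT KD 2. The log2 difference was 0.60 (standard error 0.26, adjusted p = 0.422 in limma), and 0.63 (standard error 0.26, adjusted p = 0.421 in limma) at the other probe set. Without both arrays numbered 2 the values were 0.62 (standard error 0.34) and 0.65 (standard error 0.35), and the unadjusted p rose to 0.118 and 0.112. Without WT 1 they were 0.41 and 0.41, without VAChT KD 3 they were 0.41 and 0.44, and without WT 3 they were 0.86 and 0.90. Neither probe set passed an unadjusted p of 0.05 without WT 1, WT 2, VAChT KD 2 or VAChT KD 3. The 2 probe sets list the same genes and tracked each other closely (r = 0.999), so they are not separate evidence.

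Snord14e (chr9:40804748-40804838), another small nucleolar RNA within Hspa8 and not one of the members, has a probe set of its own. It read 8.75, 9.06 and 9.76 in WT and 9.62, 9.48 and 10.50 in VAChT KD, a log2 difference of 0.68 (standard error 0.33, unadjusted p = 0.0776 in limma). The order of the arrays was close to that at Snord14d and Snord14c. The probe set of Snord14a, which is listed together with Rps13, differed by -0.01 (standard error 0.07). It read only 6.78 to 6.87 over the 6 arrays, close to the background of 6.503, where a difference may not show. Over the 6 arrays, the mean of the Snord14d and Snord14c probe sets and that of the 3 Hspa8 probe sets had a Pearson r of 0.36, given as a description of 6 points. The first mean minus the second was -3.45, -3.33 and -2.56 in WT and -2.50, -2.65 and -2.32 in VAChT KD, on the log2 scale. This quantity differed by 0.62 on average, VAChT KD minus WT, and the groups overlapped. By an exact permutation test of the 6 arrays, two-sided, p was 0.2, where 0.1 is the smallest that 3 arrays against 3 can give.

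**Figure D4:**
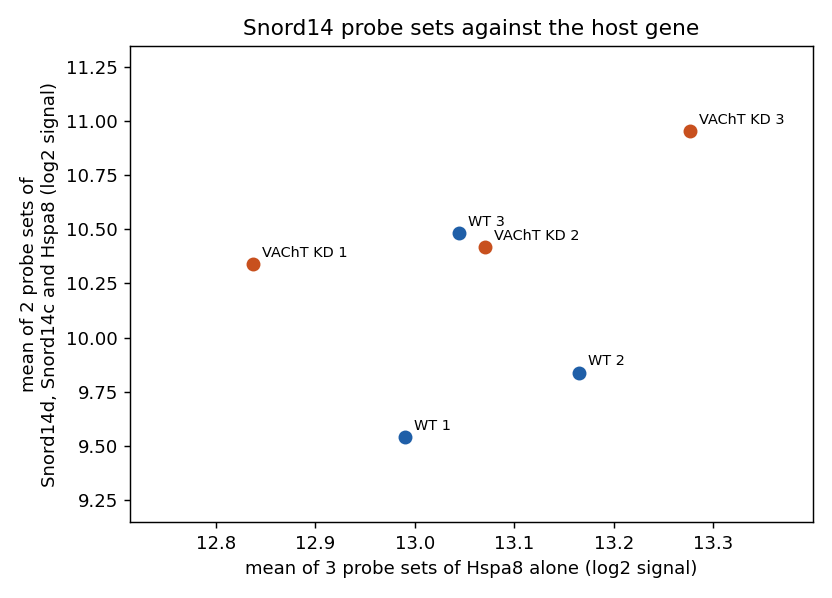
Mean log2 signal of the 2 probe sets that list Snord14d, Snord14c and Hspa8 (vertical axis) against that of the 3 probe sets that list Hspa8 alone (horizontal axis) on the 3 WT arrays (blue) and the 3 VAChT KD arrays (orange). VAChT KD 1 is the lowest array for Hspa8 at 12.84 and lies at 10.34 for Snord14, above WT 1 at 9.54 and WT 2 at 9.84.

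Of the wider chaperone network, 93 of 95 listed genes were measured by a probe set of their own, 89 of them above background. None was higher and 2 were lower in VAChT KD at an unadjusted p of 0.05 in limma, and none passed an adjusted p of 0.05. Both shares lie below those over all probe sets, 3.93% and 7.81%. The 2 genes were Cryaa, the alpha A-crystallin of the eye lens, and Dnajb13, a J-domain protein of sperm and cilia. Cryaa read 7.58, 7.50 and 7.67 in WT and 7.44, 7.30 and 7.15 in VAChT KD, and the groups did not overlap. Its log2 difference was -0.29 (standard error 0.10, adjusted p = 0.409 in limma). Dnajb13 differed by -0.35 (standard error 0.10, adjusted p = 0.409 in limma) at a mean signal below background.

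The median log2 difference was 0.02 over the 93 genes, and family by family no median lay further from 0 than 0.09. Among 12 other Hsp70 genes none passed an unadjusted p of 0.05. The smallest p values there belonged to Hspa14, of the ribosome-associated complex, at 0.14 (standard error 0.08) and Hspa13, of the endoplasmic reticulum, at 0.15 (standard error 0.10). The other Hsp90 genes measured were Trap1 of mitochondria at 0.07 (standard error 0.08) and Hsp90b1 of the endoplasmic reticulum at 0.00 (standard error 0.11). Hspb2, a small heat shock protein of muscle that RefSeq places within the span of Cryab on chromosome 9, differed by 0.09 (standard error 0.11). It read 9.86 in VAChT KD 1 against 9.87 to 10.06 in WT and so lay closer to WT there than Cryab did. The testis protein Odf1 differed by -0.21 (standard error 0.10) at a mean signal of 5.56, below background.

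None of 22 co-chaperones passed, with Stip1, which links Hsp70 to Hsp90, at 0.19 (standard error 0.12) and Fkbp4, an immunophilin of Hsp90, at 0.12 (standard error 0.10). Among 8 mitochondrial chaperones and proteases none passed either, with Clpb at 0.16 (standard error 0.09) and Hspe1, the co-chaperonin of Hspd1, at 0.16 (standard error 0.11). Vbp1, a prefoldin subunit, differed by 0.25 (standard error 0.14) and Cct3, of the cytosolic chaperonin, by 0.17 (standard error 0.12), and none of the 13 genes of that list passed. Of 12 chaperones of the endoplasmic reticulum, Sdf2l1 at -0.17 (standard error 0.08) and Canx, calnexin, at -0.17 (standard error 0.08) had the smallest p values, and none passed. Of the 16 other J-domain genes, Dnajb8 followed Dnajb13 at -0.17 (standard error 0.10). The heat shock factor Hsf2 differed by 0.18 (standard error 0.10) and Hsf4 by -0.06 (standard error 0.09), and none of the 3 genes measured in that list passed. Without both arrays numbered 2, the wider list held 4 genes at an unadjusted p of 0.05, namely Dnajb13 at -0.44, Dnajb11 at 0.42, Vbp1 at 0.42 and Pfdn2 at 0.30, where 4.46% of all probe sets were higher and 6.16% lower, so that 4 of 93 is not above the background. Dnajb11, which the study itself chose on these samples, differed by 0.16 (unadjusted p = 0.363 in limma) with all 6 arrays, and it read 9.10 in WT 2 against 8.56 and 8.78 in the other WT arrays and 8.74 in VAChT KD 2 against 9.00 and 9.17 in the other mutant arrays.

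Markers of other cells and of early stress responses were read beside the members. The mean of 6 smooth muscle markers, the cells that also hold Hspb6, ran from 8.88 to 9.02 in WT and from 9.01 to 9.05 in VAChT KD. Tagln of that list was higher in VAChT KD by 0.22 (standard error 0.09), and the groups did not overlap. Its unadjusted p was 0.0475 and its adjusted p 0.422 in limma. Over all probe sets, 3.93% were higher at an unadjusted p of 0.05, and 6.25% did not overlap on the higher side. Lmod1 of the same list went the other way, at -0.19 (standard error 0.11), and the median of the 6 was 0.09. The mean of 6 skeletal muscle markers, of which 3 lay above background, ran from 6.58 to 6.83 in WT and from 6.46 to 6.54 in VAChT KD. Of 12 immediate early genes, Fos and Nr4a1 were lower at -0.55 (standard error 0.16) and -0.44 (standard error 0.16), and none was higher, at an unadjusted p of 0.05 in limma, where 7.81% of all probe sets were lower. Both had an adjusted p of 0.409 in limma. The mean of the 12 was lowest in VAChT KD 1, at 8.28 against 8.45 to 8.79 elsewhere, whereas the probe set of Hspa1a and Hspa1b was lowest in VAChT KD 2 and Dnajb1 in WT 1. The part of these other cells and responses in the values of the members was not tested.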

How the data were processed

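Heart RNA of 3 WT and 3 VAChT KD pools was measured on Affymetrix Mouse Gene 1.0 ST arrays. After scanning (Command Console 1.1), the authors ran RMA in Partek Genomics Suite 6.5 and deposited 1 log2 signal per probe set and array. No source used here names the genome build or the annotation. Because RMA equalises the arrays, a shift shared by most genes would be reduced. The deposited values were not fully level, as the median signal was 6.98, 6.93 and 6.91 in WT 1, 2 and 3. In VAChT KD 1, 2 and 3 it was 6.88, 6.89 and 6.84. No probe set was dropped before testing.

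Genes came from the platform annotation, matched by whole symbols, so that 7 probe sets such as that of Dnajb11, whose symbols only begin like a member's, were left out. For the other lists 1 probe set per gene, that with the highest mean, was used. Positions and promoter windows came from RefSeq on GRCm38.p6. Genes with no window in that table were Hspa8, Hsp90aa1 and Cryab. Symbols without a probe set of their own here were Hsp90ab1, Hsf1 and, among the markers, 3 red cell genes. Tests used limma 3.58.1 (lmFit, eBayes) under R 4.3.3, after tests on simulated data, with Benjamini-Hochberg adjustment over 35556 probe sets. The thresholds were a p of 0.05 and, as in the study, 1.3-fold. Background was the 95th percentile of 1035 olfactory receptor probe sets, which 20448 probe sets exceeded. The genes named were all members, in each chaperone family those at an unadjusted p of 0.05 or otherwise those with the smallest p, the 5 most like Cryab and most like the probe set of Hspa1a and Hspa1b, and up to 2 per marker list. Outside this rule, and chosen after their values were seen, are Hspb2, Snord14a, Snord14e, Ogdhl, the leukocyte markers besides Cd3e and the genes called without the arrays numbered 2. The markers Dcn, Postn and Lmod1 were also named after their values were seen. The members, lists and tests were chosen with earlier results of these data known.

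Alternatives were a further quantile normalization, median centring, a filter on dim probe sets, trend and robust in eBayes, array weights, the methods' own gene-level test, the replicate number as a block, and arrays left out. The records do not tie pools to separate animals, so p-values measure the spread between pools.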

Additional observations from a re-analysis of the deposited data

How the results depend on the processing

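Of the results on members, the count at an unadjusted p of 0.05, which was 2, stayed at 2 without dim probe sets, with trend and robust in eBayes, with median centring and with the replicate number as a block, and was 0 after a further quantile normalization, with array weights, with the methods' gene-level test and without both arrays numbered 2. With 1 array left out it ran from 0 to 2, and was 0 without WT 1, WT 2, VAChT KD 2 or VAChT KD 3. The median difference over members stayed within the SD between arrays in every setting and ran from -0.064 to 0.14 with 1 array left out; its sign turned with array weights (-0.031) and without WT 1 or VAChT KD 3. The count of the wider list, 2, was 4 without both arrays numbered 2 and 1 without dim probe sets, and ran from 1 (without VAChT KD 2 or VAChT KD 3) to 5 (without WT 2) with 1 array left out. The median likeness of members ran from 0.52 to 0.65 when single arrays were removed, which was added after the data had been seen.

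Directions of differences close to 0 were not stable. With array weights, those of Hspa8 became -0.045 and -0.031 at its brighter probe sets, those of Hsp90aa1 -0.012, -0.031 and -0.00042, and that of the brighter probe set of Hspb1 -0.0091. The dimmest probe set of Hspa8 turned to 0.045 without both arrays numbered 2 and to 0.023 with median centring, and Cryab to 0.034 with median centring. With 1 array left out the differences ran from -0.14 to 0.052 for Hspb6, -0.15 to 0.021 for Hspb7, -0.11 to 0.13 for Cryab, -0.0048 to 0.18 for Hspb8, -0.066 to 0.18 and -0.043 to 0.20 for Hspb1, -0.069 to 0.096, -0.059 to 0.10 and -0.21 to 0.12 for Hspa8, -0.089 to 0.24, -0.10 to 0.20 and -0.072 to 0.24 for Hsp90aa1, -0.45 to 0.059 for the probe set of Hspa1a and Hspa1b and -0.24 to 0.14 for Hspa1a alone. Dnajb1 and the Snord14d and Snord14c probe sets stayed above 0 in every setting run. The causes were not tested.

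The replicate numbers of the labels were not shown to pair the arrays: deviations from the group means correlated at 0.06, -0.12 and 0.13 for the numbers 1, 2 and 3, and the highest correlation of WT 1 was with VAChT KD 2 (0.18). With the number as a block, the count of members stayed at 2 and that of the wider list at 2.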

Other observations

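Signals of other cell type markers in these RNA pools varied between arrays beside the chaperone genes. Whether the cells themselves varied was not tested. The mean of 5 atrial myocyte markers ran from 9.70 to 9.99 in WT and from 9.94 to 10.45 in VAChT KD, highest in VAChT KD 3. That array was also the highest for 9 of the 17 member probe sets. These were the probe sets of Hspb6, Cryab, Hspb8, Dnajb1 and Hspa8 and those listed with Snord14d and Snord14c. Several of them list the same gene, so they are not separate evidence. The share of all probe sets highest in VAChT KD 3 was not computed, and a link with the atrial markers was not tested. Of the endothelial markers, 5 were measured with means from 10.09 to 10.36, and of the fibroblast markers 6 with means from 9.71 to 9.88; none of either list passed an unadjusted p of 0.05 in limma. The 2 red cell markers measured, Alas2 and Slc4a1, differed by 0.54 (standard error 0.31) and -0.26 (standard error 0.18). Among 5 adipocyte markers Plin1 was lower by -0.25 (standard error 0.11), and among 5 leukocyte markers Cd3e was lower by -0.22 (standard error 0.08), both at an unadjusted p of 0.05 (adjusted p = 0.421 and 0.409 in limma). The other 4 leukocyte markers differed by 0.05 (Ptprc), 0.13 (Cd68), 0.13 (Adgre1) and 0.10 (Cd79a), and the median of the 5 was 0.10.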
